A study of Homo sapiens with 72 samples.

Results

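The cytoplasmic ribosomal protein genes encode the protein components of the cytoplasmic ribosome, named RPL for the large subunit and RPS for the small subunit. They were taken here as every gene symbol in the mRNA count files formed of RPL or RPS and a number (with an optional A, X or L), together with RPLP0, RPLP1, RPLP2 and RPSA. The rule found 81 of the 26485 genes listed, of which 49 were RPL and 32 were RPS genes. Of these, 79 passed the filter on low counts and entered the tests, which covered 15556 genes in all. The other two, RPL3L and RPL10L, are tissue-restricted paralogs and stayed at or below 0.517 and 0.505 CPM (a gene's reads per 1000000 reads assigned to genes in its library) in every library.

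The study asked what the terminal uridylyltransferases TUT4 and TUT7, enzymes that add uridines to the 3′ ends of RNAs, do in cancer cells with and without the RNA-binding protein LIN28A. Poly(A)-selected RNA was sequenced from 36 libraries in 9 groups of 4. The groups were IGROV1 cells (an ovarian cancer line that expresses LIN28A), DU145 cells (a prostate cancer line negative for LIN28A) and LIN28A OE DU145 cells (DU145 carrying a lentiviral LIN28A cDNA), each as WT and as a pair of TUT4/7 cKO clones, called cKO #1 and cKO #2. A cKO is a catalytic knockout made with a CRISPR nickase aimed at exon 12 of TUT4 and exon 14 of TUT7 and grown from single sorted cells, with cKO #1 and cKO #2 given as independent clones and the LIN28A OE cKO cells as derived from the DU145 cKO cells. In the labels, however, the last part of the clone name counts up with the replicate in both IGROV1 cKO groups and in cKO #2 of DU145 and LIN28A OE DU145, so the labels do not settle whether the 4 libraries of those groups are of 1 clone. The LIN28A cDNA was driven by a CMV promoter and its carriers were selected with puromycin. The 4 replicates of a group were consecutive passages, namely passages 6 to 9 (WT), 2 to 5 (cKO #1) and 3 to 6 (cKO #2) for IGROV1, up to 160, 9 to 12 and 8 to 11 for DU145, and 1 to 4 in each LIN28A OE group. P-values therefore measure the spread between passages of a culture or clone, and passage number and genotype cannot be told apart in IGROV1 and DU145.

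The ribosome is assembled from ribosomal RNAs and roughly equal amounts of each ribosomal protein, and ribosomal protein mRNAs are among the most abundant messages of a growing cell. Most of them are TOP mRNAs, which begin with a cytosine followed by an uninterrupted run of pyrimidines. This terminal oligopyrimidine (TOP) start lets the kinase mTORC1, partly through the cap-binding protein LARP1, switch the translation and stability of these messages together with those of translation factors. Several ribosomal proteins have further roles. RPL5 and RPL11 bind the 5S ribosomal RNA and restrain the p53 antagonist MDM2 when ribosome assembly fails.

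The TOP start was read from the RefSeq promoter windows of build GRCh38.p14, which matched 64 of the 81 genes. A cytosine at the annotated first base followed by at least 4 further pyrimidines (C or T, sense strand) was present in 42 of the 64 genes (65.6%), against 4.04% of all 27305 windows. When the cytosine was allowed up to 5 bases to either side of the annotated first base, 50 of the 64 genes held it (78.1%), against 21.1% of all windows. The following windows, from 8 bases before the annotated first base to 20 bases from it, are shown because these genes carry the differences described next. Capitals mark the pyrimidine run found within 5 bases of the start.
RPS24: tcgtggttCTCTTTTCCTCCTTggctgt
RPS27: ctttcgctCCTTTCCggcggtgacgacc
RPL41: tcgcctttCTCTCggccttagcgccatt
RPS21: agctgcttCCTTTCTCTCTCgcgcgcgg
RPLP0: cgcgaggcCCTTCTCTCgccaggcgtcc
RPL22: ctcacctcCCTTTCTaactccgctgccg
RPL4: ggagtggtaagcaCTTCCTTTTCCTgtg
RPS27L: tgccgagcgcagatcgcttgcagcttgc
The windows lie at chr10:78033855-78033882 (RPS24, plus strand), chr1:153990754-153990781 (RPS27, plus), chr12:56116625-56116652 (RPL41, plus), chr20:62387095-62387122 (RPS21, plus), chr12:120201092-120201119 (RPLP0, minus), chr1:6199576-6199603 (RPL22, minus), chr15:66504836-66504863 (RPL4, minus) and chr15:63157458-63157485 (RPS27L, minus), and their last 20 bases fall in the first exon. The first 6 hold the run at the annotated first base, RPL4 holds it 5 bases further on, and no such run was in the RPS27L window. An absent match says only that these letters are not in the window.

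The libraries held 7195437 to 25054688 reads assigned to genes, of which 287922 to 1809476 fell on the ribosomal protein genes. TUT4 (listed as ZCCHC11) was at 70.2 to 84.3 CPM in IGROV1 WT against 10.6 to 33.8 and 17.1 to 32.1 CPM in the cKO clones, and at 44.9 to 66.0 CPM in DU145 WT against 5.0 to 15.5 in cKO #1 and 27.3 to 49.8 in cKO #2. In LIN28A OE DU145 cKO #2, TUT4 was at 58.6 to 65.0 CPM, within the WT range of 52.3 to 76.3. TUT7 (ZCCHC6) was lower in every cKO library than in every WT library of its own background. A targeted exon need not lower the RNA, so these levels check the labels only in part. LIN28A was at most 0.46 CPM in DU145 and 64.8 to 74.7 CPM in LIN28A OE WT, but 325 to 406 and 229 to 320.2 CPM in LIN28A OE cKO #1 and #2. Among lineage markers, PAX8 averaged 639.8 CPM in IGROV1 WT and 0.859 in DU145 WT, while the prostate marker KLK3 was at or near 0 in DU145. The epithelial markers KRT8 and EPCAM averaged 195 and 77.4 CPM in IGROV1 WT but at most 2.74 and 0.245 CPM in its cKO clones. Other epithelial markers were kept in part. KRT18 averaged 226 CPM in IGROV1 WT, 292 in cKO #1 and 32.8 in cKO #2. KRT19 averaged 696, 595 and 308 CPM, and CDH1 4.52, 0.881 and 0.222 CPM, in the same order. The part of these differences in the IGROV1 results was not tested. PTPRC and ALB, which mark blood and liver cells, averaged under 1 CPM in every group. The remaining listed markers of other cell types were not all as low. CD14 averaged 1.37 to 3.60 CPM in the DU145 and LIN28A OE DU145 groups. PECAM1 averaged at most 2.06 CPM, and COL1A1 averaged 4.85 to 22.0 CPM over all groups.

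Together the 81 genes took a share of the reads that was highest in IGROV1, where the cKO means lay above WT, and lower in DU145, where they lay below WT. In IGROV1 WT the summed share was 7.09%, 6.25%, 6.29% and 6.30% of the assigned reads. In IGROV1 cKO #1 it was 8.08%, 6.85%, 8.76% and 10.5%, and in cKO #2 7.24%, 7.22%, 7.84% and 9.64%. Both cKO means, 8.55% ± 1.53 and 7.99% ± 1.14 (SD, n = 4), were above the WT mean of 6.48% ± 0.408, 1 cKO #1 library lay within the WT range, and replicate 4 was the highest library of each clone.

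The DU145 libraries lay lower throughout. The share was 5.19%, 4.92%, 4.53% and 4.39% in DU145 WT, 3.83%, 4.61%, 3.81% and 4.61% in cKO #1 and 3.71%, 3.60%, 3.49% and 4.08% in cKO #2. Every cKO #2 library was below every WT library, whereas the cKO #1 and WT ranges overlapped. In LIN28A OE DU145 the share was 4.07%, 5.76%, 6.0% and 5.26% in WT, 4.17%, 3.83%, 4.85% and 4.81% in cKO #1 and 3.74%, 4.53%, 4.77% and 4.88% in cKO #2. The last 3 WT libraries were above all cKO libraries, and WT replicate 1 was among the lowest of its background. In bulk RNA a smaller share cannot be told apart from more RNA of other genes, nor fewer expressing cells from less RNA per cell, and no test was made on the sum.

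**Figure D1:**
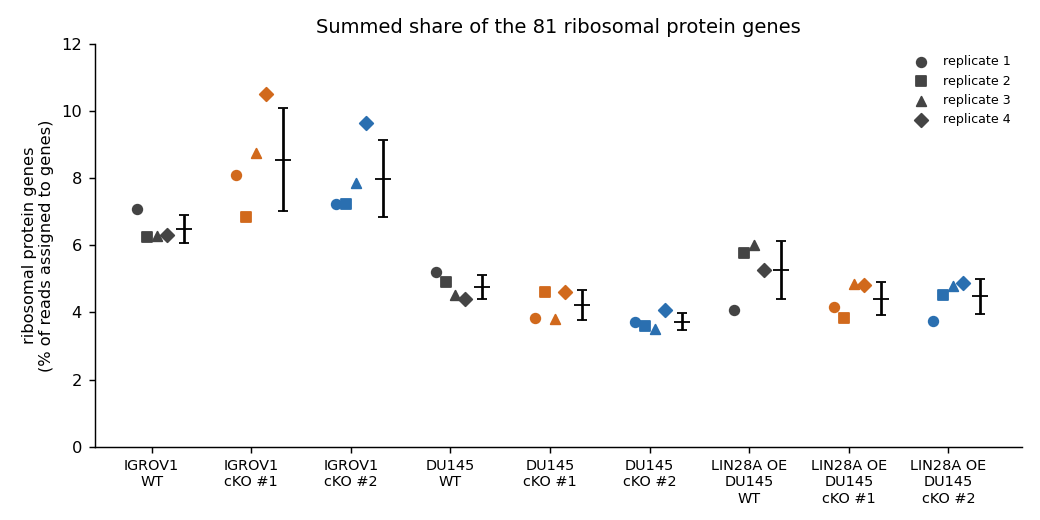
Summed share of the 81 ribosomal protein genes in each of the 36 libraries, as percent of the reads assigned to genes, by group. Symbols mark the replicates and the black bars give the mean and SD of 4 libraries. IGROV1 cKO libraries reach 10.5%, and the DU145 cKO #2 libraries lie between 3.49% and 4.08%.

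In IGROV1 the ribosomal protein mRNAs were higher in the average of the TUT4/7 cKO clones than in WT cells. With both clones averaged against WT, 28 of the 79 genes rose and none fell at an edgeR quasi-likelihood FDR (Benjamini-Hochberg over all 15556 genes) below 0.01. Among all genes tested 15.1% were higher and 18.1% lower by the same rule. The median log2 fold change of the 79 was 0.38 (range -0.08 to 0.81), against a median of 0 over all genes. Estimates were positive for 78 of 79, and for 71 in both clones. The calls fell on both subunits, with 16 of 47 RPL genes called (median 0.37) and 12 of 32 RPS genes (median 0.43).

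RPS24, a small-subunit protein that is mutated in some cases of the inherited anaemia Diamond-Blackfan anaemia, rose most. It was at 905, 886, 874 and 846 CPM in the 4 WT libraries, 1881, 1674, 1963 and 1155 CPM in cKO #1 and 1439.7, 1459, 1483 and 1163 CPM in cKO #2. Every cKO library was above every WT library (log2 fold change 0.81 ± 0.10 (SE), adjusted p = 2.12e-08 by edgeR), although replicate 4 was the lowest of each clone for this gene while it was the highest for the summed share. RPS27, a zinc-binding protein of the small subunit, was at 389, 358, 359.7 and 359 CPM in WT, 586, 484, 654 and 821 CPM in cKO #1 and 546, 538, 614 and 750.0 CPM in cKO #2. The groups did not overlap, and the log2 fold change was 0.80 ± 0.16 (adjusted p = 1.05e-04 by edgeR). RPL38, a large-subunit protein whose groups did not overlap either, was at 665, 558, 562 and 557 CPM in WT, 928, 747, 979 and 1175 CPM in cKO #1 and 804, 818, 871 and 1103 CPM in cKO #2 (log2 fold change 0.69 ± 0.14, adjusted p = 9.52e-05 by edgeR).

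The remaining genes among the 5 with the largest rise were counted at low levels. RPL41, the shortest ribosomal protein, was at 15.8, 23.5, 25.8 and 13.8 CPM in WT, 24.1, 15.8, 31.9 and 45.9 CPM in cKO #1 and 39.5, 26.6, 49.1 and 39.8 CPM in cKO #2 (log2 fold change 0.81 ± 0.25, adjusted p = 0.00985 by edgeR). Its cKO #2 libraries were all above WT, and its cKO #1 libraries overlapped with WT. RPL36A, on the X chromosome, was at 4.56, 4.62, 3.86 and 5.23 CPM in WT, 10.5, 10.1, 8.47 and 4.79 CPM in cKO #1 and 5.09, 8.98, 6.62 and 5.13 CPM in cKO #2 (log2 fold change 0.72 ± 0.16, adjusted p = 3.41e-04 by edgeR), with replicate 4 of each clone and replicate 1 of cKO #2 inside the WT range. Both genes have near-identical processed copies elsewhere in the genome, and RPL36A, RPL17 and RPS10 overlap read-through genes listed beside them, so reads may have been lost to multiple or ambiguous assignment and their levels are uncertain.

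At the other end stood genes that did not pass the test. RPL22, a large-subunit protein that also binds viral RNAs, was at 232, 189.5, 189.8 and 191 CPM in WT, 224, 199, 225 and 173 CPM in cKO #1 and 173, 181, 169 and 158.6 CPM in cKO #2 (log2 fold change -0.08 ± 0.09, adjusted p = 0.48 by edgeR). RPL11 was at 1260.3, 1170.5, 1212 and 1186 CPM in WT, 1317, 1205, 1503 and 1209 CPM in cKO #1 and 1061, 1073, 1120.4 and 1117 CPM in cKO #2 (adjusted p = 0.977 by edgeR). In both genes the cKO #2 libraries were below all WT libraries and the cKO #1 libraries were not. RPS6, the substrate of the S6 kinases, was at 2361, 2122, 2209 and 2198 CPM in WT, 3186, 2552, 3279.8 and 2571 CPM in cKO #1 and 2551, 2513, 2569 and 2457 CPM in cKO #2, and with a log2 fold change of 0.30 ± 0.11 it missed the threshold (adjusted p = 0.0197 by edgeR). The log2 fold changes of RPL5, RPS4X, RPLP0, RPLP1, RPL10 and RPS27A were 0.20, 0.09, 0.27, 0.12, 0.28 and 0.18, and none of these was called. RPSA, the laminin receptor protein of the small subunit, rose by 0.58 and RPL39 by 0.48, whereas RPL13A (0.48) and RPLP2 (0.38) did not pass.

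Against the shared WT libraries, 38 genes were higher in cKO #1 (background 14.5%, median log2 fold change 0.49) and 11 in cKO #2 (background 14.2%, median 0.26). In cKO #2 the share called was thus near that of all genes, with 73 of 79 estimates positive. The replicate 4 libraries of both clones stood apart, with the lowest TUT4 and TUT7 levels and the highest share of reads on other genes whose GENCODE v44 canonical transcript is under 1000 nucleotides (6.36% and 5.64%, against 4.57% to 4.97% in WT), and 46 of the 81 ribosomal protein genes are that short. Without these 2 libraries 19 genes rose and none fell (median 0.24). With replicates 1 and 2 only, 1 gene rose (median 0.12), and with replicates 3 and 4 only, 35 rose (median 0.66). Fitting the 12 IGROV1 libraries alone gave 14. The shares of all genes called in these refits, and in the refits described below, are not given here. Whether the changes in count are particular to the ribosomal protein genes was not tested.

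In DU145, which lacks LIN28A, the ribosomal protein mRNAs were lower in the average of the TUT4/7 cKO clones than in WT cells. Of the 79 genes 21 fell and none rose, beside 10.2% of all genes lower and 7.84% higher. The median log2 fold change was -0.30 (range -0.64 to 0.37), and 77 of 79 estimates were negative. The calls fell on 12 of 47 RPL genes (median -0.30) and 9 of 32 RPS genes (median -0.31).

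RPS27A, which encodes ubiquitin fused to a small-subunit protein, was at 428, 403, 342 and 342 CPM in WT, 231, 286, 217 and 237 CPM in cKO #1 and 298, 276, 256 and 282 CPM in cKO #2. RPL4, which lines the exit tunnel of the large subunit, was at 1645, 1773, 1616 and 1459.7 CPM in WT, 1046, 1177, 1090.0 and 1124 CPM in cKO #1 and 1136, 1083, 1108 and 1207 CPM in cKO #2. In both genes every cKO library was below every WT library, with log2 fold changes of -0.61 ± 0.10 (adjusted p = 1.13e-05 by edgeR) and -0.59 ± 0.11 (adjusted p = 9.49e-05). RPL3, which reaches the peptidyl transferase centre, showed the same separation at 1459, 1649, 1509 and 1230.3 CPM in WT, 960.3, 1093, 961 and 1099.9 CPM in cKO #1 and 1018, 974, 949.5 and 1003 CPM in cKO #2 (log2 fold change -0.60 ± 0.14, adjusted p = 0.00108 by edgeR). RPS21, whose TOP start is printed above, was at 451, 399, 393 and 404 CPM in WT, 291, 341, 258 and 386 CPM in cKO #1 and 261, 266, 239 and 308 CPM in cKO #2. It did not overlap between WT and cKO either (log2 fold change -0.55 ± 0.14, adjusted p = 0.00238 by edgeR).

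RPL17 had the largest fall but few reads, at 11.8, 12.4, 10.9 and 14.4 CPM in WT, 8.68, 10.4, 5.77 and 10.8 CPM in cKO #1 and 7.48, 6.25, 7.88 and 9.09 CPM in cKO #2 (log2 fold change -0.64 ± 0.15, adjusted p = 0.00122 by edgeR). The WT and cKO ranges nearly touched. RPL5, a partner of the 5S RNA, was at 688, 738, 688 and 619 CPM in WT, 474, 509, 483 and 448 CPM in cKO #1 and 535, 530.0, 534 and 555 CPM in cKO #2, and fell by 0.49 on the log2 scale (adjusted p = 2.98e-05 by edgeR). Its partner RPL11 (-0.43), RPL22 (-0.42) and RPLP0 (-0.53) fell too, and RPS24 fell by 0.42. RPLP1, RPLP2, RPSA, RPS6, RPS4X, RPL10, RPL13A, RPL39, RPL41 and RPL36A had log2 fold changes of -0.42, -0.44, -0.42, -0.33, -0.17, -0.34, -0.42, -0.18, -0.52 and -0.01, none of them called. The estimates above 0 belonged to the paralogs RPS27L (0.37, adjusted p = 0.0343 by edgeR) and RPL39L (0.10, adjusted p = 0.714).

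By clone, 10 genes were lower in cKO #1 (background 11.3%, median -0.11) where RPS27L was higher, and 29 in cKO #2 (background 10.5%, median -0.45), and 59 of 79 estimates were negative in both clones. In cKO #1 the share called lower was thus near that of all genes. Without DU145 WT replicate 1 the averaged comparison called 11 genes and without WT replicate 2 it called 13. With replicates 1 and 2 only it called 10 (median -0.42), and with replicates 3 and 4 only 0 (median -0.18). For these refits, too, the shares of all genes called are not given. As in IGROV1, replicate 4 of each DU145 clone had the lowest TUT4 and TUT7 levels of its clone. It also had its clone's highest share of reads on the other short genes (5.94% and 5.26%, against 4.43% to 5.75% in WT). Replicate 4 was not lowest for TUT4 or TUT7 in either LIN28A OE clone. A fit without replicate 4 of both DU145 clones was not run, so its part in the DU145 result was not tested.

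**Figure D2:**
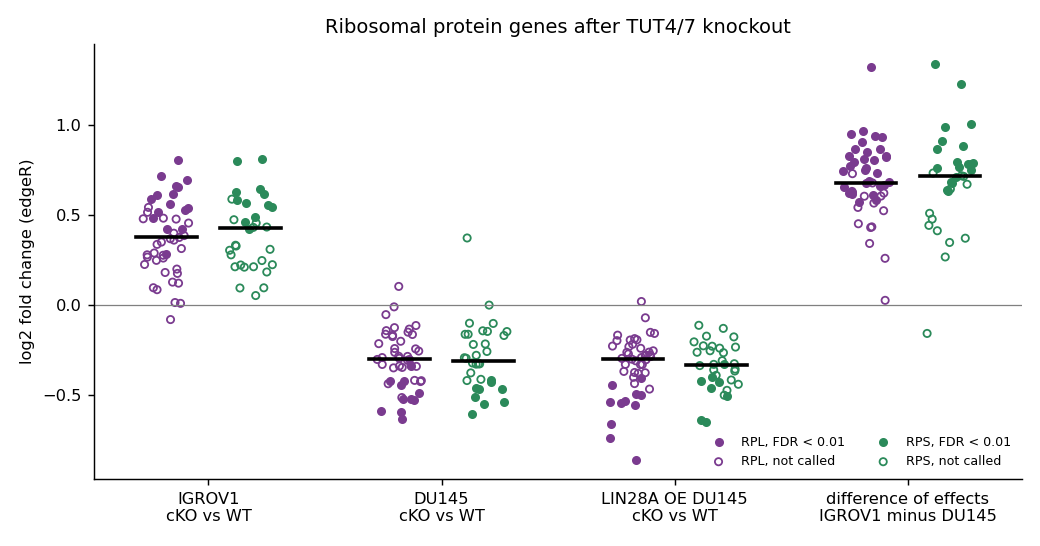
Log2 fold changes of the 79 tested ribosomal protein genes, cKO against WT with both clones averaged, in the 3 backgrounds, and the difference of the IGROV1 and DU145 effects. Purple points are the 47 RPL and green points the 32 RPS genes, filled points passed FDR below 0.01, and black bars are medians, which lie at 0.37 and 0.43 in IGROV1 and at -0.30 and -0.31 in DU145.

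With LIN28A added to DU145, the cKO comparison again gave lower ribosomal protein mRNAs. In LIN28A OE DU145 19 genes fell and none rose (all genes 10.6% lower and 7.35% higher), with a median log2 fold change of -0.33 and 78 of 79 estimates negative. LIN28A itself was higher in the cKO than in the WT cells of this background, as given above, so the knockout and the LIN28A level cannot be told apart here. RPLP0, the base of the ribosomal stalk, was at 1466, 1912, 2029.5 and 1890.4 CPM in WT, 1013, 872, 1108 and 1112 CPM in cKO #1 and 1260.0, 1481, 1526 and 1595 CPM in cKO #2 (log2 fold change -0.67 ± 0.15, adjusted p = 0.00101 by edgeR). The cKO #1 libraries were all below WT, and the cKO #2 range reached into it only at WT replicate 1. RPS25, a small-subunit protein used by some internal ribosome entry sites, was at 423, 615, 634 and 524 CPM in WT, 332, 297, 373 and 352 CPM in cKO #1 and 354, 422, 447 and 451 CPM in cKO #2 (log2 fold change -0.64 ± 0.10, adjusted p = 3.40e-06 by edgeR), with the same overlap at WT replicate 1.

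RPL41 and RPL17 had the largest falls, both at low levels. RPL41 was at 28, 30.4, 34.4 and 18.9 CPM in WT, 11.8, 17.5, 16.5 and 9.72 CPM in cKO #1 and 23.4, 13.3, 17.4 and 24.4 CPM in cKO #2 (log2 fold change -0.86 ± 0.24, adjusted p = 0.00694 by edgeR). RPL17 was at 11.4, 9.47, 10.9 and 11.1 CPM in WT, 10.2, 7.72, 5.77 and 8.40 CPM in cKO #1 and 5.57, 5.75, 6.62 and 5.26 CPM in cKO #2 (log2 fold change -0.74 ± 0.14, adjusted p = 1.39e-04 by edgeR). One clone of each gene lay wholly below WT, cKO #1 for RPL41 and cKO #2 for RPL17. RPS21 (-0.65), RPL4 (-0.56), RPS27A (-0.51), RPL5 (-0.50), RPL11 (-0.45) and RPL22 (-0.41) fell as well. RPSA (-0.24), RPS6 (-0.23), RPL13A (-0.28), RPL10 (-0.38), RPS4X (-0.18), RPLP1 (-0.44), RPLP2 (-0.47), RPL39 (-0.15), RPL36A (-0.07) and RPL39L (0.02) were not called.

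Each clone against WT called 19 lower genes, with backgrounds of 13.9% for cKO #1 and 10.1% for cKO #2. The averaged count rested on the WT libraries, being 34 without WT replicate 1, whose share was low among the WT libraries, and 12 without WT replicate 2 or replicate 3. It was 5 with replicates 1 and 2 only and 3 with replicates 3 and 4 only, and the shares of all genes called in these refits are not given.

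The DU145 and LIN28A OE DU145 comparisons share clones but no library. Of the 21 genes lower in DU145 and the 19 lower in LIN28A OE DU145, 16 were the same, which is 76.2% of the former and 84.2% of the latter list. Among them were RPL4, RPL5, RPL6, RPL11, RPL17, RPL22, RPL34, RPL35A, RPLP0, RPS7, RPS21, RPS23, RPS24, RPS25 and RPS27A. Across the 79 genes, which are not independent replicates, the log2 fold changes had a Pearson r of 0.76 between these backgrounds and of 0.20 between IGROV1 and DU145. Neither the overlap nor r was computed over all genes. These values therefore do not show whether the likeness is particular to the ribosomal protein genes. The test of the difference between the LIN28A OE DU145 and DU145 effects called none of the 79 genes in either direction by edgeR (1 had an unadjusted p below 0.05, and DESeq2 called 0), beside 0.18% and 0.309% of all genes. The median difference was -0.02, with single genes between -0.58 and 0.19 on the log2 scale. RPS27L had the lowest of these, at -0.58 ± 0.18.

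The effect of the cKO differed between the 2 lines. Subtracting the DU145 effect from the IGROV1 effect gave 51 of 79 genes with a positive and none with a negative difference at FDR below 0.01 (all genes 11.3% and 12.8%), and a median difference of 0.69 on the log2 scale. In all 51 the estimate was above 0 in IGROV1 and below 0 in DU145. The differences were largest for RPS27 (1.34 ± 0.22, adjusted p = 9.90e-06 by edgeR), RPL41 (1.32 ± 0.36, 0.00376), RPS24 (1.23 ± 0.13, 5.34e-09), RPSA (1.01 ± 0.22, 6.19e-04) and RPS14 (0.99 ± 0.21, 3.39e-04). Of these genes RPS27 and RPS24 were also called in opposite directions within the lines. In DU145 RPS27 was at 733, 721, 637 and 651 CPM in WT, 432, 504, 413 and 468 CPM in cKO #1 and 517, 551, 498 and 568 CPM in cKO #2, and RPS24 at 669, 687, 653 and 659 CPM in WT, 538, 632, 536 and 421 CPM in cKO #1 and 539, 524, 518 and 462 CPM in cKO #2. In neither gene did the WT and cKO libraries of DU145 overlap. RPS14 was at 1607, 1411, 1380.3 and 1381 CPM in IGROV1 WT, 1944, 1603, 2074 and 2905 CPM in cKO #1 and 1562, 1608, 1745 and 2275 CPM in cKO #2, overlapping with WT at replicate 2 of cKO #1 and replicate 1 of cKO #2, and its log2 fold change of 0.47 ± 0.15 was not called (adjusted p = 0.0107 by edgeR) beside the fall of 0.52 in DU145. RPL5 (0.69), RPS6 (0.63), RPS27A (0.79), RPLP0 (0.81), RPLP2 (0.82), RPL13A (0.90) and RPL39 (0.66) were called as well. RPL11, RPL22, RPL10, RPL36A, RPLP1 and RPS4X were not, with differences of 0.43, 0.34, 0.62, 0.73, 0.54 and 0.26. The lowest values belonged to RPS27L (-0.16 ± 0.18) and RPL39L (0.02 ± 0.25).

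Without the replicate 4 libraries of the IGROV1 clones the difference was called for 48 genes (median 0.56). With replicates 1 and 2 only it was called for 7 (median 0.58) and with replicates 3 and 4 only for 16 (median 0.82), always with a positive difference. Here again the shares of all genes called are not given.

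**Figure D3:**
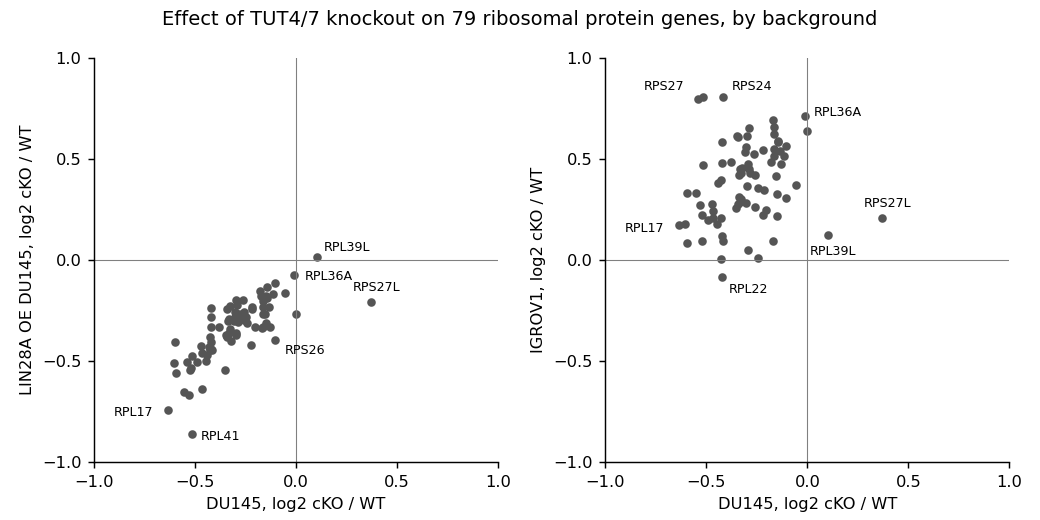
Log2 fold change (cKO against WT, clones averaged) of each of the 79 ribosomal protein genes in LIN28A OE DU145 (left) and IGROV1 (right), plotted against the change in DU145. The points of the left panel lie along the diagonal below 0 on both axes (r = 0.76), and nearly all points of the right panel lie above 0 for IGROV1 and below 0 for DU145.

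Between the DU145 clones, the fit without a replicate block called a share of ribosomal protein genes higher that was near that of all genes. That fit called no ribosomal protein gene lower, but the counts changed with a replicate block. RPS14, RPS27L, RPS23 and RPL39 were among the 5 with the largest difference both in DU145 and in the LIN28A OE derivatives of these clones. In DU145, 14 genes were higher and none lower in cKO #1 than in cKO #2 (all genes 15.7% and 15.4%). Same-numbered libraries of these clones deviated together, with r of 0.12 to 0.53. Blocking on the replicate number, which is 1 passage apart between these clones, gave 44 higher and 7 lower, and scaling by library totals gave 9 higher and 3 lower. The shares of all genes called in these refits are not given here. RPS14, a small-subunit protein whose gene is lost in 5q- myelodysplasia, was at 1456, 1120.1, 1066 and 1036 CPM in WT, 1026, 1226, 1075 and 1266 CPM in cKO #1 and 657, 585, 589 and 711 CPM in cKO #2. RPS23, which shapes the decoding site, was at 638, 639, 567 and 549 CPM in WT, 568, 679, 505 and 594 CPM in cKO #1 and 348, 364, 318 and 363 CPM in cKO #2. For both genes cKO #1 overlapped WT and cKO #2 lay wholly below both, with clone differences of 0.97 ± 0.17 (adjusted p = 2.50e-05 by edgeR) and 0.87 ± 0.14 (adjusted p = 7.41e-06) on the log2 scale. Both genes are on the long arm of chromosome 5, RPS23 at chr5:82273320-82278396 and RPS14 at chr5:150442635-150449739 in GRCh38 (GENCODE v44). No copy number data were used here, and a part of this location in the clone differences was not tested. The count of 14 came to 8 without cKO #1 replicate 2 or 4, and to 9 without cKO #2 replicate 2 or 3.

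RPS27L, the paralog of RPS27 that p53 induces, ran the other way against WT. It was at 77.1, 63.4, 70.8 and 67.6 CPM in DU145 WT, 113, 149.6, 127 and 105 CPM in cKO #1 and 63.7, 85.5, 77.6 and 61.0 CPM in cKO #2, so that cKO #1 was above WT and cKO #2 overlapped it (clone difference 0.90 ± 0.15, adjusted p = 1.22e-05 by edgeR). In LIN28A OE DU145 the same gene was at 80.4, 120.4, 81.4 and 69.0 CPM in WT, 118, 98.6, 126 and 117 CPM in cKO #1 and 55.9, 76.4, 51.5 and 46.1 CPM in cKO #2, and here cKO #1 overlapped WT (clone difference 1.08 ± 0.15, adjusted p = 4.73e-07 by edgeR). In that background 8 genes were higher and 2 lower in cKO #1 than in cKO #2 (all genes 17.6% and 20%, by library totals 6 and 4). RPL39, at 48.5, 66.2, 72.6 and 63.7 CPM in WT, 63.0, 61.7, 86.2 and 82.7 CPM in cKO #1 and 44.9, 48.7, 52.1 and 51.4 CPM in cKO #2, differed by 0.66 ± 0.14 in LIN28A OE DU145 (adjusted p = 2.67e-04 by edgeR) and by 0.64 ± 0.14 in DU145 (adjusted p = 5.64e-04). RPS14 (0.65), RPS23 (0.58) and RPL14 (0.58) were also higher in cKO #1 there, and RPS12 (-0.60) and RPL6 (-0.51) lower.

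Between the IGROV1 clones the share of ribosomal protein genes called without a replicate block was also near or below that of all genes. Of the 79 genes 6 were higher in cKO #1, led by RPLP2 (0.61 ± 0.16, adjusted p = 0.00441 by edgeR) and RPL27A (0.57 ± 0.15, 0.00297), and RPL39L was lower (all genes 8.79% higher and 10% lower). RPL39L, the paralog of RPL39, was at 17.8, 14.6, 15.5 and 15.3 CPM in WT, 11.3, 11.6, 13 and 10.9 CPM in cKO #1 and 24.4, 28.3, 27.3 and 19.6 CPM in cKO #2. The 3 groups did not overlap, WT lying between the clones, which differed by -1.01 ± 0.21 on the log2 scale (adjusted p = 3.31e-04 by edgeR). The higher count was unstable, since it came to 1 or 2 without any of IGROV1 cKO #2 replicates 1 to 3 or cKO #1 replicate 3, to 11 without cKO #2 replicate 4, and to none when only the 8 libraries were fitted.

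**Figure D4:**
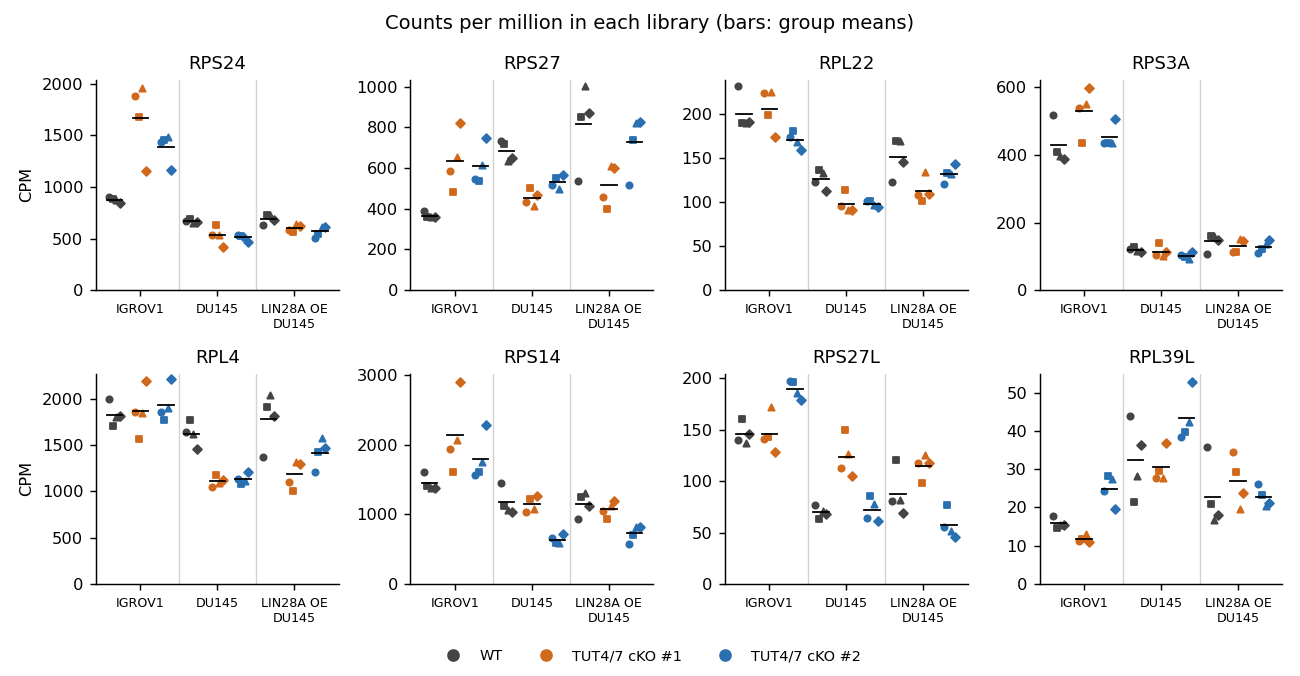
CPM of 8 ribosomal protein genes in each of the 36 libraries (circle, square, triangle and diamond for replicates 1 to 4), with group means as bars, on linear axes that start at 0. RPS24 and RPS27 are above WT in every IGROV1 cKO library, RPL4 is below WT in every DU145 cKO library, and RPS14 and RPS27L separate the DU145 clones.

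Adding LIN28A to WT DU145 changed no ribosomal protein gene past the threshold. None of the 79 genes was called in either direction by edgeR (all genes 6.67% higher and 2.55% lower), 10 had an unadjusted p below 0.05, and DESeq2 called 0. The median log2 fold change was 0.15, with a range of -0.49 (RPL39L) to 0.42 (RPS16). Without the low LIN28A OE WT replicate 1, 3 genes were higher and 1 lower. In cKO cells 5 genes were higher and 2 lower with LIN28A (all genes 13.8% and 9.76%, median of all genes 0.07 against 0.13 for the 79). RPL13A, a large-subunit protein with a role in interferon-dependent translational silencing, was at 844, 995, 847 and 953 CPM in DU145 cKO #1 and 960.4, 884, 1429.7 and 1402 CPM in its LIN28A OE derivative, and at 727, 725, 673 and 767 and 892, 1079, 1205 and 1326 CPM in the cKO #2 pair. The cKO #1 ranges overlapped and the cKO #2 ranges did not (log2 fold change 0.48 ± 0.14, adjusted p = 0.00705 by edgeR).

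The other genes called with LIN28A in cKO cells were RPL3 (0.39), RPL31 (0.35), RPS6 (0.34) and RPL22 (0.30), which were higher, and RPL39L (-0.57) and RPS26 (-0.51), which were lower. Leaving out single libraries moved the count from 5 and 2 to between 0 and 6 higher with 2 lower. The total was 4 or less without any of DU145 cKO #1 replicates 1 and 3, DU145 cKO #2 replicates 1 to 4, LIN28A OE cKO #1 replicates 3 and 4 and LIN28A OE cKO #2 replicates 2 to 4, and replicate 3 of LIN28A OE cKO #1 and replicate 4 of LIN28A OE cKO #2 each took the higher count to 0. The passage numbers of the LIN28A OE and DU145 cells differed, and passage and LIN28A cannot be told apart.

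Between the WT cells of the lines the ribosomal protein genes differed widely. In IGROV1 WT 44 genes were higher and 4 lower than in DU145 WT (all genes 28.7% and 31.3%), with a median log2 difference of 0.47. RPS3A, a small-subunit protein, was at 519, 408, 398 and 388 CPM in IGROV1 WT and 122, 128, 116 and 113 CPM in DU145 WT (log2 difference 1.91 ± 0.15, adjusted p = 3.03e-13 by edgeR). RPS4X, encoded on the X chromosome, was at 1623, 1417, 1433 and 1425 against 528, 523, 467 and 460.4 CPM (1.65 ± 0.12, adjusted p = 1.50e-14 by edgeR). The groups did not overlap for either gene, and RPL24 (1.38) and RPL31 (1.19) were also among the 5 with the largest positive difference.

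The opposite direction held for RPS29, at 334, 293, 295 and 285 CPM in IGROV1 WT and 945, 766, 694 and 705 CPM in DU145 WT (log2 difference -1.29 ± 0.17, adjusted p = 5.96e-08 by edgeR), and for RPL39L, at 17.8, 14.6, 15.5 and 15.3 against 43.8, 21.5, 28.1 and 36.3 CPM (-0.96 ± 0.21, adjusted p = 1.11e-04). RPS27 (-0.83) and RPL37 (-0.56) were the other genes lower in IGROV1. The members of 2 paralog pairs differed in opposite directions between the lines, with RPL39 higher (1.17) and RPL39L lower in IGROV1, and RPS27 lower and RPS27L higher (1.14). RPL5 (1.17), RPL11 (0.54), RPS6 (0.96), RPL13A (1.06), RPL22 (0.75), RPL10 (0.65), RPL36A (0.77), RPLP1 (0.51) and RPLP2 (0.55) were higher in IGROV1, whereas RPLP0 (0.32), RPSA (0.39), RPS27A (0.09) and RPL41 (-0.07) were not called. The lines were grown in different media, which cannot be told apart from the line.

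Over the 9 groups the ribosomal protein genes had a median range of group means of 1.55 on the log2 CPM scale against 1.67 for all tested genes. Among the 5 widest ranges were those of RPS3A (2.64), RPL31 (2.32), RPS4X (2.26) and RPL24 (2.24), each highest in IGROV1 cKO #1, and the narrowest that of RPS28 (0.62). Within groups the genes varied together from library to library. Deviations from the group mean had a median pairwise Pearson r of 0.82 over the 36 libraries, and 93.8% of pairs were above 0, a description of values that share depth and composition. The calls in a comparison are therefore not independent. The 5 other genes whose level followed the summed share most closely over the 36 libraries (by Pearson r) were EEF1G and EEF2, which encode elongation factors, MIR3654, LOC440311 and GLTSCR2. For this the share was taken as the log2 of the percent of library totals scaled as in the edgeR fit. In the order EEF1G, EEF2, MIR3654, LOC440311 and GLTSCR2 their r was 0.99, 0.97, 0.97, 0.94 and 0.97 within the 12 IGROV1 libraries, and 0.97, 0.89, 0.96, 0.83 and 0.84 within the 24 DU145 and LIN28A OE DU145 libraries.

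Genes with and without a TOP start at the annotated first base had similar medians. Among the 42 genes with the run at the annotated first base the median log2 fold change was 0.44 in IGROV1, -0.33 in DU145 and -0.33 in LIN28A OE DU145. Among the 21 tested genes without it, the medians were 0.31, -0.33 and -0.36. These 21 include genes such as RPL4 that hold a run within 5 bases of that base. The split therefore does not divide genes with a nearby TOP run from genes without one. The medians of both sets had the sign of the median of all 79 genes in each background, and the difference between the sets was not tested.

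Other messages of the translation machinery were followed through lists chosen by function. The 15 other TOP mRNAs, mostly translation factors, had calls in the same directions as the ribosomal protein genes. In IGROV1 4 rose and none fell (median 0.22, all genes 15.1% higher), among them NAP1L1, a histone chaperone (0.52 ± 0.08, adjusted p = 1.08e-06 by edgeR), and EEF1D, a subunit of elongation factor 1 (0.58 ± 0.14, 8.25e-04). In DU145 5 fell and none rose (median -0.34, all genes 10.2% lower), led by the initiation factor EIF4B (-0.61 ± 0.11, 1.02e-04) and the poly(A)-binding protein PABPC1 (-0.41 ± 0.09, 5.23e-04), and NAP1L1 was among them (-0.28 ± 0.07, 0.00426). In LIN28A OE DU145 4 fell and none rose (median -0.27, all genes 10.6% lower), and these 4 (EIF4B, EIF3L, HNRNPA1 and NAP1L1) were also lower in DU145. The difference between the IGROV1 and DU145 effects was positive and called for 7 of the 15, beside 11.3% of all genes, with a median of 0.56.

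The 31 ribosomal protein pseudogenes took only 0.0109% to 0.0225% of the assigned reads, and their reads cannot be separated with certainty from those of the parent genes. Of the 19 tested, 3 were higher and 1 lower in IGROV1 (median 0.45), 1 lower in DU145 (-0.27) and 2 lower in LIN28A OE DU145 (-0.30). Of all genes 15.1% were higher and 18.1% lower in IGROV1, 10.2% lower in DU145 and 10.6% lower in LIN28A OE DU145. Among the 7 ribosomal proteins and paralogs that the naming rule misses, RACK1 (listed as GNB2L1), a scaffold protein of the small subunit, had log2 fold changes of 0.34 ± 0.13 in IGROV1 (adjusted p = 0.0349 by edgeR), -0.51 ± 0.13 in DU145 (0.00253) and -0.52 ± 0.13 in LIN28A OE DU145 (0.00199). RPL7L1 was the only one of the 7 lower in IGROV1, none was higher there, and none was higher in DU145 or LIN28A OE DU145.

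The mitochondrial ribosomal proteins, which build the ribosome of the mitochondrion, had medians near 0 in the cKO comparisons. Of 76 tested, 14 were higher and 4 lower in IGROV1 (median 0.06, all genes 15.1% and 18.1%). In DU145 1 was higher and 4 lower (median 0.10, all genes 7.84% and 10.2%). With LIN28A in cKO DU145 41 of the 76 fell and none rose (median -0.36), beside the 9.76% of all genes. Of the 25 ribosome biogenesis factors 4 rose and 4 fell in IGROV1, 1 fell in DU145, and 11 fell with LIN28A in cKO DU145 (median -0.33), beside the same shares of all genes.

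The snoRNA host RNAs also begin with a TOP run, carry small nucleolar RNAs in their introns and are mostly degraded by nonsense-mediated decay. In these 8 RNAs 1 rose in each cKO comparison (SNHG6 in IGROV1 and DU145, SNHG12 in LIN28A OE DU145) and none fell, with medians of 0.42, 0.23 and 0.35. Of all genes 15.1%, 7.84% and 7.35% were higher in the same order. Between the DU145 clones 7 of the 8 were lower in cKO #1 and none higher (median -1.0, all genes 15.4% lower). In LIN28A OE DU145 7 were lower (median -1.51, all genes 20% lower). Of the 9 regulators of TOP mRNAs, 2 rose and 2 fell in DU145 (all genes 7.84% and 10.2%). In LIN28A OE DU145 none rose and 3 fell (all genes 7.35% and 10.6%). EIF4EBP1, a translational repressor that mTORC1 inactivates, fell by 1.04 in DU145 (adjusted p = 1.89e-08 by edgeR) and by 0.89 in LIN28A OE DU145 (2.94e-07). LARP1 fell by 0.36 (3.27e-05) and 0.39 (6.94e-06), and RPTOR and RPS6KB2 rose in DU145. In IGROV1 MTOR fell by 0.26 (0.00226) and the other 8 were not called (all genes 18.1% lower).

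**Figure D5:**
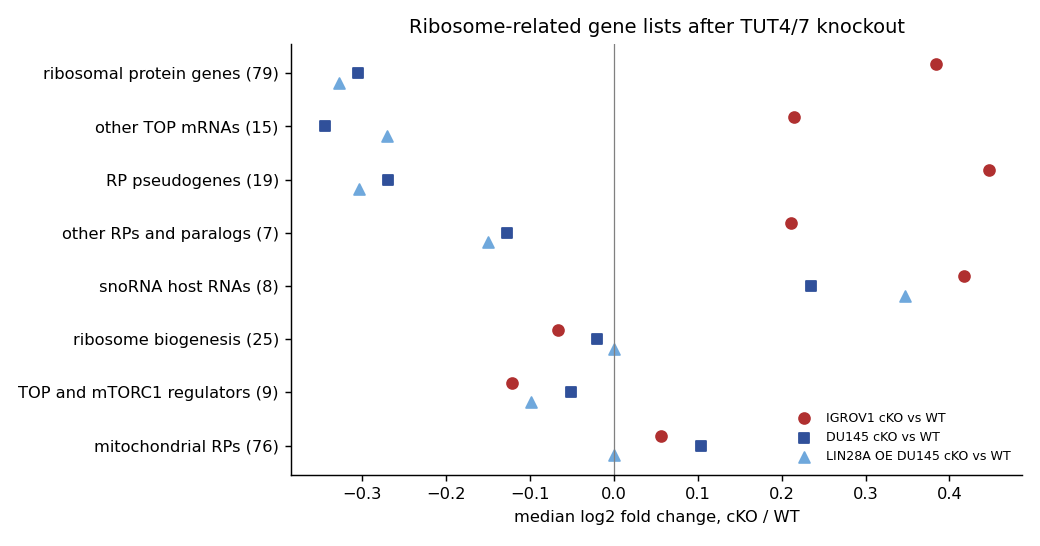
Median log2 fold change (cKO against WT, clones averaged) of the 79 ribosomal protein genes and of 7 related lists in the 3 backgrounds, with the number of tested genes in brackets. The ribosomal protein genes, other TOP mRNAs and ribosomal protein pseudogenes lie above 0 in IGROV1 and below 0 in both DU145 backgrounds, and the mitochondrial ribosomal proteins lie between 0 and 0.10.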

How the data were processed

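The deposited values were read counts per gene, 1 table for each of 36 mRNA libraries. According to the methods the authors made the libraries with a stranded poly(A) kit, trimmed reads with Trimmomatic 0.39, removed ribosomal reads with sortmeRNA, aligned to hg38 with HISAT2 2.1.0 and counted with HTSeq (the versions are from the submitters' processing notes). The annotation and the strand setting are not given in the sources used here. HTSeq leaves out reads that map to several places or overlap several genes, which affects ribosomal protein genes with processed copies. The rows for reads with no gene, ambiguous reads and non-unique reads were kept out of all totals. They held 7.25% to 12.6%, 1.52% to 1.92% and 9.28% to 14.5% of all rows. The small RNA libraries of the series were not used here.

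CPM values are a gene's counts per 1000000 counts assigned to genes in its library. Tests used edgeR 4.0.16 in R 4.3.3 (filterByExpr by group, TMM scaling, a model of 9 group means over all 36 libraries, glmQLFit and glmQLFTest), with Benjamini-Hochberg adjustment over 15556 genes and a call at FDR below 0.01. For cKO comparisons both clones were averaged with equal weight. The SE of a log2 fold change was its size divided by the square root of the F statistic. The fit was tested on simulated counts. The alternative test was DESeq2 1.42.0, and the other alternatives were 2 scalings of the totals, TMM without the ribosomal protein genes, no filter, FDR below 0.05, pseudogene reads added to the parent gene, fits of the compared groups alone with and without a replicate block, each pair of replicates, and each library left out. No 2 replicates agreed within sampling noise (chi-square per degree of freedom of 4.03 or more over 54 pairs).

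Replicate numbers follow passages. Same-numbered libraries deviated together (r above 0.1 in every pair) between DU145 cKO #1 and cKO #2, with r of 0.12 to 0.53, and in no other comparison. Between the IGROV1 clones 3 of 4 pairs were above 0.1, with r of 0.099 to 0.74, so a pairing there is not excluded.

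Genes were named by rule: in each comparison the 5 called genes with the largest positive and negative change (same sign in both clones), a list of 19 genes of known interest, and the 5 genes with the widest range over groups. Some named results are not reported here. The genes and lists were chosen with earlier results of these data known. Transcript lengths came from GENCODE v44, and symbols of 92.8% of genes matched.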

Additional observations from a re-analysis of the deposited data

Results flagged for a closer look

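In groups of 4, a library was marked where its gap to the nearest one, as a share of the group's range, was above the 95% critical value of Dixon's test, a limit that chance passes in about 1 of 20 groups. Of 106 groups examined, 8 were marked, and 7 of these are IGROV1 WT replicate 1. This library had the highest summed share of its group (7.09%) and the highest values of RPS27 (389 CPM), RPL38 (665 CPM), RPL22 (232 CPM), RPS3A (519 CPM), RPS4X (1623 CPM) and RPS14 (1607 CPM), which are not independent of each other. The other marked value was the low RPS24 level of IGROV1 cKO #2 replicate 4 (1163 CPM). Without IGROV1 WT replicate 1, 25 ribosomal protein genes were higher in the IGROV1 cKO cells and none lower.

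The cKO effect differed between IGROV1 and DU145 for 51 ribosomal protein genes at FDR below 0.01 (edgeR interaction contrast). The largest differences on the log2 scale were those of RPS27 (1.34), RPL41 (1.32), RPS24 (1.23), RPSA (1.01) and RPS14 (0.99).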

How the results depend on the processing

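Of 1238 values recomputed for the genes named by rule, 1068 kept their direction and their side of the threshold and none reversed. For the counts under other settings the shares of all genes called are not given here. The medians of the cKO against WT comparisons kept their sign under every setting run. At FDR below 0.05 the counts of ribosomal protein genes were 45 (IGROV1 cKO against WT), 35 (DU145), 34 (LIN28A OE DU145), 13 (LIN28A in cKO DU145), and 16, 27 and 18 (cKO #1 against cKO #2 in IGROV1, DU145 and LIN28A OE DU145). DESeq2 size factors gave 4 for LIN28A in cKO DU145. With no low-count filter the counts were 3 for LIN28A in cKO DU145 and 4 for the IGROV1 clones. Scaling by library totals moved the median of all genes by -0.11 between the DU145 clones and turned the median for the LIN28A OE DU145 clones to -0.028.

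With replicates 1 and 2 only, the counts were 1 (IGROV1, median 0.12), 10 (DU145), 5 (LIN28A OE DU145), 0 (LIN28A in cKO DU145), 0, 7 and 4 (clones in IGROV1, DU145 and LIN28A OE DU145) and 7 (difference of the IGROV1 and DU145 effects). With replicates 3 and 4 only, they were 35 (IGROV1, median 0.66), 0, 3, 3, 0, 3, 3 and 16 in the same order. Each of these has fewer libraries. Fits of the compared groups alone gave 14 for IGROV1, 1 for the IGROV1 clones and 17 for the LIN28A OE DU145 clones. With the replicate block they gave 13 for LIN28A in cKO DU145, 25 for the IGROV1 clones, 51 for the DU145 clones and 21 for the LIN28A OE DU145 clones, and the block moved no other count by over 1.5 times. In the comparisons other than DU145 cKO #1 against cKO #2 not every same-numbered pair deviated together. Between the IGROV1 clones r was 0.099 to 0.74. The cause of these changes was not tested.

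Leaving out 1 library gave 19 to 41 genes (median 0.31 to 0.44) for IGROV1, 11 to 23 genes (median -0.36 to -0.27) for DU145, 12 to 34 genes (median -0.43 to -0.25) for LIN28A OE DU145, 42 to 56 genes (median 0.62 to 0.75) for the difference of the IGROV1 and DU145 effects, 0 to 4 genes (median 0.09 to 0.25) for LIN28A in WT DU145, 2 to 8 genes (median 0.07 to 0.16) for LIN28A in cKO DU145, 38 to 51 genes (median 0.40 to 0.55) for the WT lines, 2 to 12 genes (median -0.0011 to 0.32) for the IGROV1 clones, 8 to 16 genes (median 0.21 to 0.37) for the DU145 clones and 7 to 10 genes (median 0.0033 to 0.12) for the LIN28A OE DU145 clones. The difference of the LIN28A OE DU145 and DU145 effects called 0 genes in every such fit (median -0.12 to 0.04). The IGROV1 clone median of -0.0011 came without cKO #1 replicate 4. After the data were seen, the fit without replicate 4 of both IGROV1 cKO clones was added (19 genes in IGROV1 and 48 for the difference of effects). The planned share without mitochondrially encoded genes was not run, since no such symbol is listed. Adding pseudogene reads moved no count by over 1.5 times.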
